A study of Mus musculus with 12 samples.

Results

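The cells described here are mammary gland fibroblasts of the mouse that carried high counts of both Fabp4 and Postn. They were chosen on single-cell RNA counts: at least 500 genes, at least 1000 unique molecular identifiers (UMIs, 1 per captured transcript molecule) and at most 5% mitochondrial UMIs, then at least 20 UMIs of Col1a1, Col1a2 and Col3a1 together with 0 UMIs of Ptprc, Pecam1 and Epcam for a fibroblast, and within the fibroblasts at least 10 UMIs of Fabp4, at least 30 of Postn and under 20 of Pi16. Of 46257 cells that passed the quality limits, 33709 were fibroblasts and 1689 were double-high, which is 5.01% of the fibroblasts. Their 2 neighbours in the gate served for comparison, namely 5273 fibroblasts high for Fabp4 with under 30 Postn UMIs (Postn-low cells) and 2219 fibroblasts with at least 30 Postn UMIs but under 10 of Fabp4 (Fabp4-low cells). The limit of under 20 Pi16 UMIs held for both neighbours and for all Fabp4-high fibroblasts counted here. Fibroblasts with 20 or more UMIs of Pi16, a marker of Dpp4-positive fibroblasts, are therefore in no state compared. Cells with fewer Pi16 UMIs remain in each state.

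Fabp4 encodes a fatty acid carrier that is switched on as precursor cells commit to the fat lineage, and Postn encodes periostin, a secreted matrix protein of fibroblasts that build or remodel connective tissue. Fibroblasts next to the mammary epithelium secrete the collagens and basement membrane components on which ducts grow, together with growth factors of the fibroblast growth factor (FGF), Wnt and insulin-like families. Fibroblasts with fat-lineage genes and fibroblasts with matrix genes are commonly described as separate states of the gland, so cells with both sets of transcripts lie between these 2 descriptions.

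All 12 libraries came from the mammary gland of female C57BL/6J mice aged 43 weeks, with 1 library per group, and the number of animals behind a library was not given in the sources used here, so tests over libraries measure the spread between libraries, which may be in part technical. The glands were digested after removal of the lymph nodes, and the processing removed large cells such as most mature adipocytes. Menopause was modelled with 4-vinylcyclohexene diepoxide (VCD), which destroys the small ovarian follicles and was injected at 160 mg/kg/day for 15 days in every group except Intact. In the final week animals received sesame oil, 17β-estradiol (E2, 1 µg per animal per day), E2 with progesterone (P4, 1 mg per animal per day), or E2 with a single 5 mg injection of the estrogen receptor degrader ICI. The flame retardant mixture PBDE was fed at a low dose for 20 weeks (0.05 mg/kg/day of its main congener) or a high dose for 1 week (1 mg/kg/day), and the other groups ate a matched diet with DMSO. No hormone, E2 and E2 + P4 were each combined with no, low and high PBDE, which gave 9 libraries: VCD_Vehicle, VCD_Low_PBDE and VCD_High_PBDE without hormone, VCD_E2, VCD_Low_E2 and VCD_High_PBDE_E2 with E2, and VCD_E2_P4, VCD_Low_E2_P4 and VCD_High_PBDE_E2_P4 with both hormones. Intact, VCD_E2_ICI and VCD_Vehicle_NormEnv, whose last term is not explained in the labels, are given as values. PBDE dose and feeding time changed together and cannot be told apart.

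Library totals ranged from 41737881 to 109224969 UMIs. Double-high cells were deeper than their neighbours, with a median of 22870 UMIs against 16311 in Postn-low and 20467 in Fabp4-low cells, and simulated doublets marked 4.09%, 2.66% and 3.74% of the 3 states. Immune cells were cells with Ptprc UMIs, under 20 UMIs of the gate collagens and 0 of Pecam1 and Epcam. Of these 5136 cells (median 7034.5 UMIs), 29 reached 10 Fabp4 UMIs (0.565%) and 0 reached 30 Postn UMIs. The collagen limit removes immune cells that hold much fibroblast RNA, so the 0 for Postn is no measure of background. A set of 740 cell barcodes occurred in more than 1 library and included 34 double-high cells (2.01%). Beside the collagens of the gate, the fibroblast marker Pdgfra was at 350 CPM in the summed double-high cells (CPM, UMIs of a gene scaled to a common total of all UMIs in the sum). It was lower there than in either neighbour in the tests given below. Mature adipocyte markers summed to 15.2 CPM over 10 genes with Lep and Pck1 at 0 and Adipoq at 0.0236 CPM. Endothelial markers, of which Pecam1 was set to 0 by the gate, summed to 2.92 CPM with Cdh5 also at 0, and epithelial markers to 1.53 CPM with Krt5 at 0. Immune markers ranged from 27.8 to 310 CPM over the libraries, the highest in the 29 cells of VCD_High_PBDE, and red blood cell genes from 8.07 to 858 CPM.

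The genes of the rule describe the members and were not tested between the cell states. Of these genes, a test by hormone is read for Postn alone, and only in all Fabp4-high fibroblasts, which were not chosen on it. Fabp4 had a median of 54 UMIs per member (range 10 to 909), and Postn a median of 88 (range 30 to 839). On the GENCODE M21 annotation of the GRCm38 build Fabp4 lies at chr3:10204088-10208576 on the minus strand and Postn at chr3:54361109-54391037 on the plus strand. Members of the libraries without hormone sat closer to the limit of 30, with a median of 42 Postn UMIs in VCD_Vehicle, 35 in VCD_Low_PBDE and 40 in VCD_High_PBDE, whereas the 6 libraries with E2 or E2 + P4 had medians from 69.5 to 170. Cells on either side of the limit had close values of the other markers: the 168 Fabp4-high cells with 25 to 29 Postn UMIs had 408 CPM of Col18a1, 97.0 of Sdc1 and 82.7 of Fgf10, and the 134 cells with 30 to 34 had 421, 99.5 and 85.4 CPM.

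A further 3 genes mark these cells. Col18a1 (chr10:77052178-77166548, minus strand) encodes the basement membrane collagen whose end fragment is endostatin, Sdc1 (chr12:8771323-8793715, plus strand) the heparan sulfate proteoglycan syndecan-1, and Fgf10 (chr13:118669791-118792115, plus strand) a ligand that acts on epithelial FGF receptors. They were chosen with these cells in view, so their levels against the neighbours are given as a description. In double-high cells Col18a1 was at 682 CPM over all members, compared with 212 in Postn-low and 348 in Fabp4-low cells, and it was higher than in either neighbour in 12 of 12 libraries. Sdc1 was at 268 CPM against 37.5 and 219, higher than in Postn-low cells in 12 of 12 libraries and than in Fabp4-low cells in 10 of 12. Fgf10 was at 128 CPM against 48.8 and 24.1, and again highest in the double-high cells of every library. The pooled Sdc1 level of Fabp4-low cells came mainly from the libraries with hormone (165 to 314 CPM), and in the 4 VCD libraries without hormone it was 10.1 to 39.7 CPM there against 32.9 to 89.9 in double-high and 16.6 to 20.6 in Postn-low cells.

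By library, Col18a1 in double-high cells was 562 CPM in Intact, 561 in VCD_Vehicle, 263 in VCD_Low_PBDE, 525 in VCD_High_PBDE and 530 in VCD_Vehicle_NormEnv. It was 805 CPM in VCD_E2, 840 in VCD_Low_E2, 776 in VCD_High_PBDE_E2, 585 in VCD_E2_P4, 732 in VCD_Low_E2_P4, 803 in VCD_High_PBDE_E2_P4 and 304 in VCD_E2_ICI. Every library with E2 or E2 + P4 was therefore above every VCD library without hormone and above Intact, and the library with ICI lay among the lowest. For Sdc1 the separation was wider: 89.9, 32.9, 80.8 and 62.3 CPM in VCD_Vehicle, VCD_Low_PBDE, VCD_High_PBDE and VCD_Vehicle_NormEnv, 144 in Intact, 78.1 in VCD_E2_ICI, and from 231 (VCD_Low_E2_P4) to 401 (VCD_High_PBDE_E2_P4) in the 6 libraries with hormone. Fgf10 overlapped between the groups, with 53.9 to 130 CPM in the 3 libraries without hormone of the layout and 93.0 to 219 in the 6 with hormone.

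**Figure D1:**
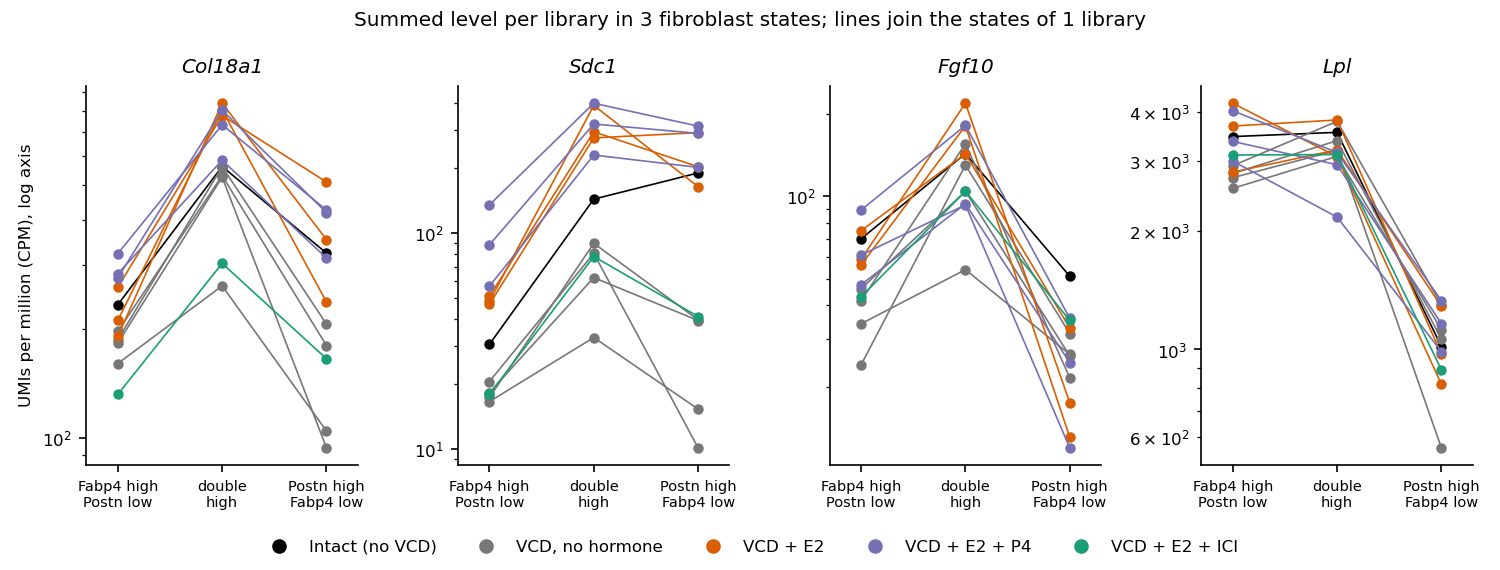
Col18a1, Sdc1, Fgf10 and Lpl in the summed cells of each library, in CPM on a log axis, for Fabp4-high Postn-low, double-high and Postn-high Fabp4-low fibroblasts; each line joins the 3 states of 1 library and its color gives the treatment. Col18a1 and Fgf10 peak in the double-high cells of all 12 libraries, Sdc1 is above the Postn-low cells in all 12, and Lpl is near its level in Postn-low cells and lower in Fabp4-low cells.

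With every cell thinned to 5000 UMIs, Col18a1 was detected in 88.5% of 1685 double-high cells, 53.6% of Postn-low, 67.0% of Fabp4-low and 2.06% of immune cells. Without thinning the share in double-high cells was 98.6%. Sdc1 was found in 53.8%, 12%, 46.3% and 7.37% of the same 4 populations (84.1% of double-high cells without thinning) and Fgf10 in 34.5%, 19.1%, 9.35% and 0.319% (66.3%). Cd36, the fatty acid transporter, was seen in 27.7% of double-high, 29.4% of Postn-low and 2.37% of Fabp4-low cells, and, as macrophages also carry it, in 28.5% of immune cells. Thinning left out 4 double-high and 1691 immune cells under 5000 UMIs.

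Across the Fabp4-high fibroblasts these readouts ran in a gradient with the Postn count rather than in a step at the limit. From 2155 cells with 0 Postn UMIs through classes of 1 to 9, 10 to 29 and 30 to 99 to 761 cells with at least 100, Col18a1 went from 146 to 210, 332, 567 and 785 CPM. Sdc1 went from 17.1 to 335 CPM, Fgf10 from 38.1 to 137, fibronectin (Fn1) from 129 to 3899 and Angpt2, an angiopoietin that acts on vessels, from 1.07 to 46.8 CPM. Lpl, lipoprotein lipase, stayed between 2705 and 3377 CPM over the 5 classes. Smoc2, a matricellular protein of basement membranes, went down from 1075 to 233 CPM, Gas6, a ligand of TAM receptors, from 408 to 47.0, Idi1 of the cholesterol pathway from 258 to 79.9 and the stress-induced factor Atf3 from 1291 to 377 CPM. The classes also differed in depth, from a median of 15306 to 26947 UMIs per cell, and in source, since the 3 libraries without hormone supplied 827 of the cells at 0 and 7 of those at 100 or more. Their part in the gradient was not tested.

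**Figure D2:**
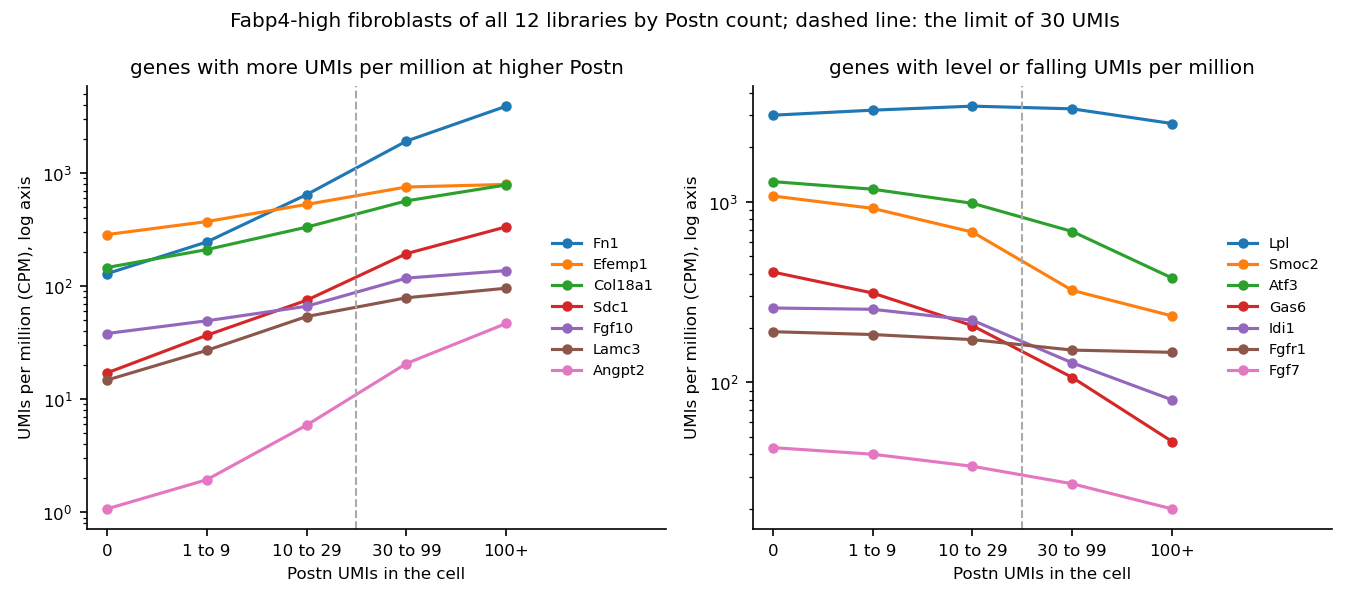
Fabp4-high fibroblasts of all 12 libraries summed by their Postn count, with CPM on a log axis and the limit of 30 UMIs as a dashed line. Col18a1 climbs from 146 to 785 CPM and Fn1 from 129 to 3899, while Gas6 goes down from 408 to 47.0 and Lpl stays between 2705 and 3377 CPM.

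The share of double-high cells was then compared over the hormone groups, since the rule used no treatment label. In VCD mice without hormone 41 of the fibroblasts in VCD_Vehicle (1.40%, 95% exact binomial interval 1.00 to 1.89%), 48 in VCD_Low_PBDE (1.34%, 0.988 to 1.77%) and 29 in VCD_High_PBDE (1.17%, 0.785 to 1.68%) were double-high. With E2 the count was 90 in VCD_E2 (3.64%, 2.93 to 4.45%), 102 in VCD_Low_E2 (3.72%, 3.04 to 4.50%) and 343 in VCD_High_PBDE_E2 (16.9%, 15.3 to 18.6%). With E2 + P4 it was 303 in VCD_E2_P4 (10.3%, 9.25 to 11.5%), 371 in VCD_Low_E2_P4 (6.78%, 6.13 to 7.48%) and 139 in VCD_High_PBDE_E2_P4 (9.29%, 7.87 to 10.9%). All 6 libraries with hormone lay above all 3 without. These intervals cover counting error only.

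The mean share was 8.43% ± 4.96 (SD, n = 6) with E2 or E2 + P4 and 1.30% ± 0.117 (SD, n = 3) without hormone. The difference of 7.13 percentage points had p = 0.0741 in an exact two-sided permutation test of the hormone labels within each PBDE level, whose 27 arrangements allow no p below 0.037. Labels permuted over all 9 libraries gave p = 0.0476 in the exact test. Among the Fabp4-high fibroblasts alone, double-high cells made up 39.8% ± 19.9 (SD, n = 6) with hormone and 6.29% ± 1.01 (SD, n = 3) without, p = 0.037 in the exact permutation test within PBDE levels, the smallest it can give. The libraries carry 1 of 2 project tags that the labels do not explain. Within the first tag the shares were 1.40% and 1.34% without hormone and 3.64% and 10.3% with it, and within the second 1.17% against 3.72 to 16.9%.

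E2 + P4 and E2 alone could not be distinguished in this share (8.80% against 8.07%, n = 3 each, p = 1.0 in the exact permutation test, smallest possible 0.25). The difference changed with the library left out, being 0.729 percentage points with all of them, 5.12 without VCD_High_PBDE_E2 and -1.49 without VCD_E2. As a share of Fabp4-high cells the values were 13.8%, 19.4% and 53.6% with E2 and 50%, 38.1% and 64.1% with E2 + P4 (no, low and high PBDE). In Intact mice 144 fibroblasts were double-high (5.35%, 4.53 to 6.27%), which was above every VCD library without hormone. VCD_E2_ICI had 67 (3.38%, 2.63 to 4.27%), and VCD_Vehicle_NormEnv had 12 (0.417%, 0.215 to 0.726%). VCD_E2 carries the first project tag and VCD_E2_ICI the second, so ICI and the tag cannot be told apart between them. The order of VCD_E2_ICI and VCD_E2, 1 library each, changed with the limits. The ICI library had 0.656% against 1.98% in VCD_E2 at limits of 20 and 60 UMIs. It had 7.31% against 5.58% at limits of 5 and 15 UMIs, and 4.49% against 3.39% with limits in CPM. The share of Fabp4-high cells among fibroblasts did not separate the groups in this way, with 18.7 to 23.2% in the 3 libraries without hormone and 14.5 to 31.4% in the 6 with hormone. By contrast, Postn-high cells among the fibroblasts with under 10 Fabp4 and under 20 Pi16 UMIs made up 4.59 to 5.74% without hormone and 14.6 to 40.4% with it, so the higher share of Postn-high cells was also seen outside the Fabp4-high fibroblasts.

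**Figure D3:**
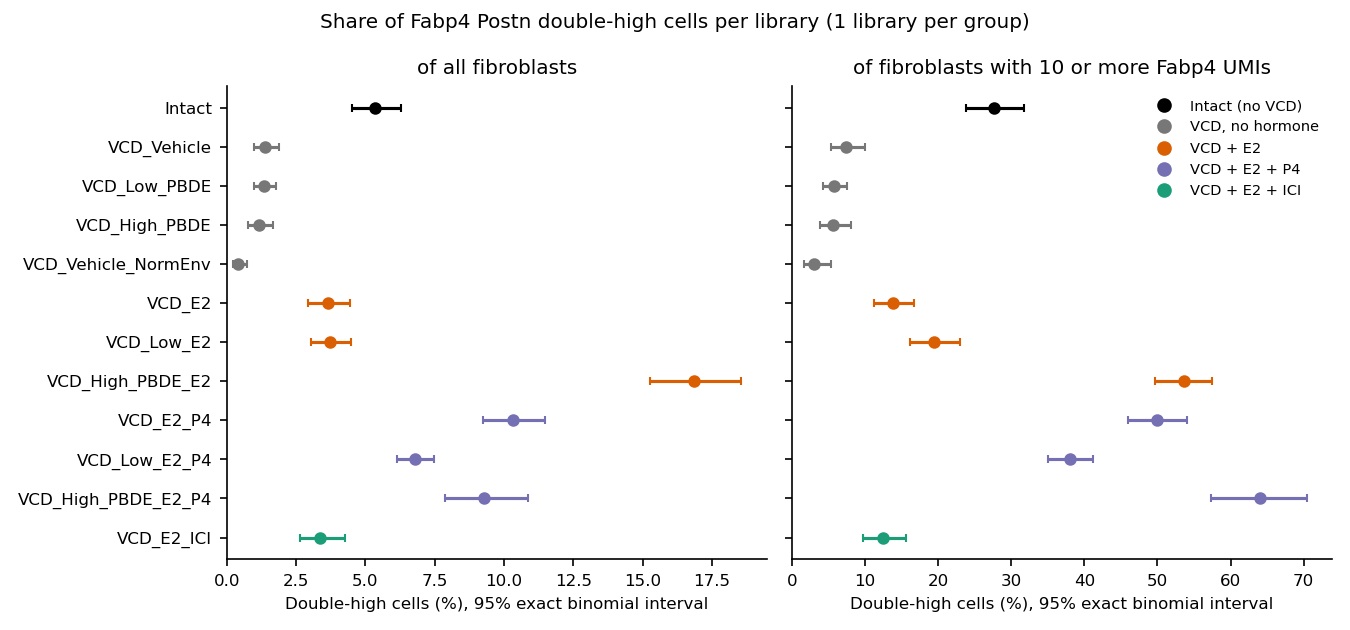
Double-high cells as a percentage of all fibroblasts (left) and of Fabp4-high fibroblasts (right) in each of the 12 libraries, with 95% exact binomial intervals. The 4 VCD libraries without hormone sit between 0.417 and 1.40% of fibroblasts, and the 6 with E2 or E2 + P4 between 3.64 and 16.9%.

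To ask what else double-high cells carry, the UMIs summed over the members of a library were set against the sum of its Postn-low cells. Most elastic fibre, contractile and ER folding and collagen secretion genes of the lists used were higher in double-high cells, while most Fib_3 marker, cholesterol and immediate early genes were lower. The lists were chosen with earlier results of these data known, so their counts are a description. Lrrc15, a membrane protein of matrix-producing fibroblasts, was 3.40 ± 0.22 (SE) higher on the log2 scale (adjusted p = 3.4e-09 by edgeR, 71.2 ± 49.4 against 5.61 ± 3.13 CPM, SD, n = 11 libraries), and Fn1 2.56 ± 0.12 higher (adjusted p = 1.4e-10, 2297 ± 1263 against 347.5 ± 195.0 CPM). VCD_Vehicle_NormEnv, with 12 double-high cells, was left out of this fit. Of 12463 genes tested, 1999 were higher (16%) and 2073 lower (16.6%), and the median change over all genes tested was -0.01. Both states were measured in the same libraries, and double-high cells were the deeper ones.

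The same direction in 11 of 11 libraries was found for 9.74% of all genes tested. Among those that also passed the test and averaged at least 20 CPM over both states, Lrrc15 had the largest increase, followed by Hmcn1 and Fn1. Hmcn1 (hemicentin) was 2.58 higher on the log2 scale, the Wnt modulator Sfrp2 2.48, Frem1, a basement membrane protein, 2.38, and Cthrc1, a collagen triple helix repeat protein, 2.29. Ptgis, the prostacyclin synthase, was 2.05 higher, Tpm2 (tropomyosin) 2.04, the calcium channel gene Cacna1g 1.93 and the sphingosine phosphate receptor gene S1pr3 1.91. On the other side stood Cox8b, a cytochrome oxidase subunit of brown fat and muscle, at -3.43 ± 0.37, Gm14964 at -2.67, Cd300lg at -2.51, the retinoic acid hydroxylase Cyp26b1 at -2.42 and Tgfbi, a matrix protein induced by transforming growth factor beta (TGF-beta), at -2.27. Slco2b1, Rrad, Ntf3, Cdh13 and Gas6 lay between -1.90 and -2.14. For these 20 genes adjusted p lay between 5e-11 and 2.1e-06 in edgeR.

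Of 5 fibrillar collagens tested, 3 were higher and 0 lower (median 0.32), led by Col5a2 at 0.64 ± 0.08 (1771 ± 536 against 1037 ± 146 CPM). Of 13 other collagens, 7 were higher and 3 lower (median 1.02), with Col13a1, a membrane collagen, at 3.12, Col8a2 at 1.94, Col12a1, which binds to fibrils, at 1.90 and Col23a1 at 1.38. The rule genes Col1a1, Col1a2 and Col3a1, which have no test here, were 0.69, 0.53 and 0.70 higher. ER folding and collagen secretion genes were higher for 26 of 35 and lower for 1 (median 0.20), with the prolyl isomerases Fkbp11, Fkbp14 and Fkbp9 at 0.80, 0.49 and 0.46 and Sdf2l1 at -0.44. Of 17 genes for collagen processing and cross-linking 7 were higher and 3 lower, among them the transglutaminase Tgm2 at 2.42 and P4ha3 at 1.89, against the lysyl oxidase Lox at -0.70 and Plod1 at -0.54.

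Basement membrane genes did not shift as a group. Among the 20 tested, which leave out Col18a1, 8 were higher and 8 lower (median -0.05). The laminin subunits Lamc3 (1.22), Lama4 (0.58) and Lamb1 (0.45) and the anchoring collagen Col7a1 (1.46) were higher, whereas Smoc2 (-1.80), Nid2 (-0.83), the main chains Col4a1 (-0.16) and Col4a2 (-0.14) and perlecan, Hspg2 (-0.19), were lower. Col15a1, the nearest relative of Col18a1, did not pass the test (0.04 ± 0.04, adjusted p = 0.48 by edgeR, 801 ± 136 against 731 ± 122 CPM). Heparan sulfate proteoglycans and their enzymes had 8 of 25 genes higher and 3 lower (median 0.12), with the glypican Gpc1 at 0.82, the sulfotransferase Hs6st1 at 0.81, the chain polymerase Ext1 at 0.76 and the sulfatase Sulf2 at -0.73.

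Among the FGF genes, both ligands and receptors were found in either direction. Of 20 tested, 9 were higher and 5 lower (median 0.29). Fgf1, a ligand that binds all FGF receptors, was 2.02 ± 0.21 higher (9.27 ± 3.67 against 2.05 ± 1.23 CPM, higher in 11 of 11 libraries), Fgf2 was 0.47 and Fgf18 0.55 higher, while Fgf7, which shares the epithelial receptor of Fgf10, was at -0.73 ± 0.13 (28.7 ± 12.7 against 41.3 ± 7.00 CPM, adjusted p = 0.00028 by edgeR). The receptor Fgfr1 changed by -0.30 (162 against 184 CPM), whereas Fgfr2 (1.07), Fgfr3 (2.07), Fgf16 (1.71) and Fgf21 (1.69) were higher from levels of at most 2.00 CPM. Among 29 other ligands for epithelium and endothelium 11 were higher and 7 lower (median 0.19). Angpt2 was 3.04 higher (24.2 against 2.73 CPM), the R-spondin Rspo1 3.19 (4.38 against 0.438 CPM), hepatocyte growth factor, Hgf, 1.18, Wnt2 1.14 and Igf1 0.46, in contrast to Bmp4 at -2.81 and Bmp2 at -1.49.

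Matricellular proteins had 9 of 17 genes higher and 3 lower (median 0.38). Tenascin C, Tnc, was 2.90 higher (20.8 ± 17.1 against 2.39 ± 2.74 CPM) and Mfap4 1.91, and Wisp2 (-2.3) and Sparcl1 (-0.86) were lower. Elastic fibre genes were higher for 10 of 14 and lower for 2 (median 0.42), from the fetal fibrillin Fbn2 at 2.24 through Efemp1 at 0.94 and Fbn1 at 0.67 to Fbln1 at -0.65. Of 10 contractile genes 7 were higher and 1 lower (median 0.46), with Tagln at 2.67 and smooth muscle actin, Acta2, at 1.00 but at 7.80 CPM, and Des at -1.43. TGF-beta pathway genes had 5 higher and 3 lower of 17 (median 0.03), with Tgfb2 at -0.66, Acvrl1 at -0.46 and Smad2 at 0.38. Of 18 matrix proteases and inhibitors 8 were higher and 5 lower (median -0.00). Mmp16 was at 1.95 and Mmp11 at -1.19, while Mmp13 (2.38) and Adamts8 (-2.59) had under 1 CPM in double-high cells.

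Fat-lineage genes other than Fabp4 were mostly lower than in Postn-low cells. Of 14 adipocyte lineage genes 1 was higher, Fabp5 at 0.22, and 9 were lower (median -0.29), including the lipid droplet protein Plin2 (-0.67), Cd36 (-0.61), the lineage regulator Pparg (-0.55, 52.1 ± 13.7 against 72.2 ± 9.04 CPM) and Apoe (-0.50). The 9 also include Pdgfra, used above as a fibroblast marker, and Pdgfrb. Lpl did not pass the test at -0.12 ± 0.08 (adjusted p = 0.26 by edgeR, 3190 ± 449 against 3262 ± 538 CPM). Of 4 mature adipocyte genes tested 3 were lower. Cholesterol synthesis and uptake genes were lower for 13 of 21 and higher for 0 (median -0.36), led by Idi1 (-1.09), Insig1 (-0.92), Msmo1 (-0.79) and Hmgcs1 (-0.67). Steroid receptors were slightly lower, with 3 of 6 tested lower, among them Esr1 at -0.26 and Nr3c1 at -0.25, and Pgr stood at 0.488 CPM.

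The markers that the study gave its fibroblast clusters are not independent of these libraries. The rule also used Fabp4, Postn and Pi16, which the study named for Fib_1, Fib_2 and Fib_0, so these lists are a description. Markers of more than 1 cluster were higher in double-high than in Postn-low cells. Fib_2 markers were higher for 7 of 9 and lower for 2 (median 0.77), including Scg3 at 1.54 and Srpx at 1.25 besides Tnc and Mfap4. Fib_0 markers were higher for 4 of 7 (median 0.44), with Dpp4 at 0.75. Fib_1 markers were lower for 6 of 9 (median -0.55) and Fib_3 markers for 8 of 9 (median -0.91), where F3, tissue factor, was at -1.85 and Gdf10 did not pass the test (0.43, adjusted p = 0.067 by edgeR). The preadipocyte marker Dlk1 was near 0 in both states (0.472 and 0.900 CPM).

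Immediate early and heat shock genes were lower for 17 of 18 (median -0.53), among them Jun at -0.88 (2329 against 3800 CPM), Dnajb1 at -0.89 and Atf3 at -0.85, and 1, Nr4a1, was 0.86 higher. These genes also respond to tissue dissociation, and their part in the other differences was not tested. Interferon-induced genes were lower for 7 of 14 (median -0.41), with Rsad2 at -1.69 and Cxcl10 at -1.38. Cell cycle genes were higher for 13 of 19 (median 1.57), with Mki67 at 2.3, but this rested on the UMI limits: with limits set in CPM 0 were higher, 2 were lower and the median was -0.27, and in cells of 15000 to 30000 UMIs 0 of 16 passed the test (median 0.06). Mki67 was found in 1.25% of double-high cells thinned to 5000 UMIs, below the 8.91% of immune cells. Of the markers of other cell types 0 of 9 immune, 0 of 6 pericyte and 0 of 2 endothelial genes were higher, and 1 of 9, 3 of 6 and 0 of 2 lower, while S100b of 4 Schwann cell genes was higher and 2 were lower, and Myh4 of 5 skeletal muscle genes was higher and 3 were lower.

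**Figure D4:**
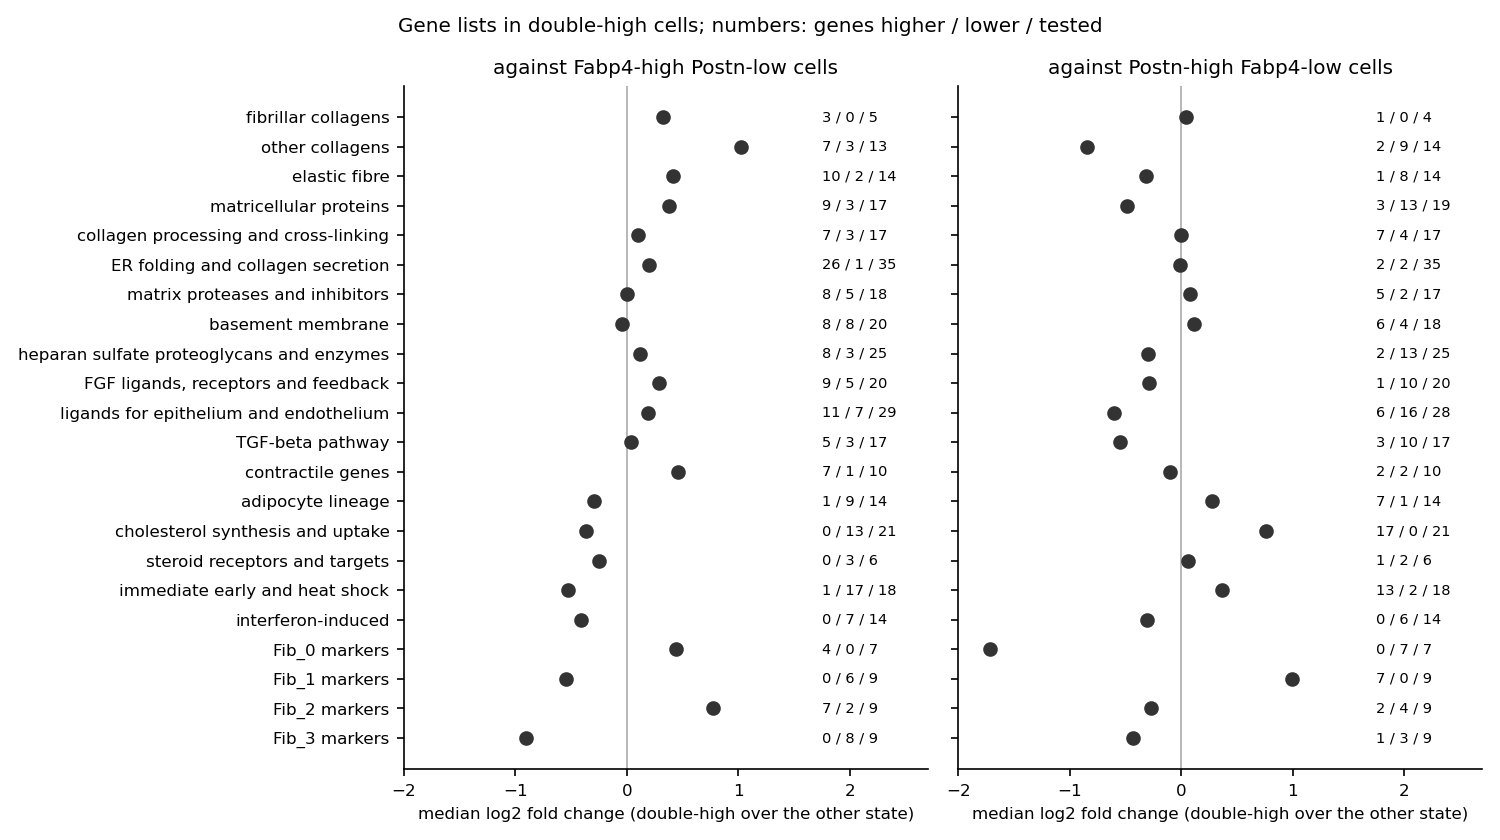
Median log2 fold change of 22 gene lists in double-high cells against Postn-low cells (left) and Fabp4-low cells (right), with the number of genes higher, lower and tested beside each point. Other collagens lie at 1.02 on the left and -0.85 on the right, matricellular proteins at 0.38 and -0.48, and cholesterol genes at -0.36 and 0.76.

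Compared with the Fabp4-low cells, which share the Postn limit, double-high cells had more fat-lineage and cholesterol genes and less of many matrix and signalling genes. Cd36 was 4.32 ± 0.16 higher on the log2 scale (adjusted p = 1.5e-11 by edgeR, 120 ± 80.8 against 5.4 ± 4.11 CPM, n = 11 libraries), and Lpl was 1.66 ± 0.10 higher (3190 ± 449 against 1040 ± 232 CPM). Across 11441 genes 1427 were higher (12.5%) and 1673 lower (14.6%), with a median of -0.01. This comparison and the one with Postn-low cells use the same double-high cells, so their results are not independent.

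Of all genes tested 9.52% had 1 direction in 11 of 11 libraries. Among those that also passed the test and averaged at least 20 CPM over both states, the largest increases were the carbonic anhydrase Car3 at 4.72, Cd36 and the transcription regulator Cited1 at 3.76. Epas1, a hypoxia-inducible factor, followed at 1.98, Adgre5 at 1.89, Gsc at 1.88, Arc at 1.86, Fabp5 at 1.82 and Aoc3 at 1.68. Igfbp2, which binds insulin-like growth factors, was lowest at -5.22 ± 0.37 (4.30 ± 6.78 against 142 ± 80.6 CPM), before Stra6 (-3.97), the Wnt modulators Sfrp4 (-3.71) and Dkk2 (-3.01), Myoc (-3.21), Crabp1 (-3.01), Mfap4 (-2.88), Chrdl1 (-2.82), Ifitm1 (-2.72) and Smpd3 (-2.66). For these 20 genes adjusted p was at most 3.2e-06 in edgeR.

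Adipocyte lineage genes were higher for 7 of 14 and lower for 1 (median 0.28), with Pparg at 1.46, and cholesterol genes for 17 of 21 with 0 lower (median 0.76), Idi1 being at 1.36. Fib_1 markers were higher for 7 of 9 (median 1.00), among them Sparcl1 at 1.00, in states that were cut on the Fib_1 gene Fabp4. Fib_0 markers were lower for 7 of 7 (median -1.71), with Dpp4 at -1.71 (39.6 ± 14.5 against 153 ± 67.4 CPM). Both counts were made among cells under the Pi16 limit, where Pi16 itself still stood at 47.3 CPM in double-high and 143 CPM in Fabp4-low cells over all libraries. For Dpp4 the double-high cells lay above Postn-low and below Fabp4-low cells, for Pparg and Idi1 below Postn-low and above Fabp4-low cells, and for Fabp5 above both. The type IV collagen chains Col4a1 and Col4a2 were 0.95 and 0.85 higher than in Fabp4-low cells, and the laminin subunits Lamc3 (0.76) and Lamb1 (0.62) were higher than in either neighbour in 11 of 11 libraries. Basement membrane genes counted 6 higher and 4 lower of 18 (median 0.12), and Col7a1 was at -3.33.

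Matricellular genes were lower for 13 of 19 and higher for 3 (median -0.48), with Thbs4, Spp1 and Nov among the lowest and Tnc at -2.35 (20.8 ± 17.1 against 108 ± 48.9 CPM). Other collagens were lower for 9 of 14 and higher for 2 (median -0.85), with Col12a1 at -0.75. Of 28 ligands 16 were lower and 6 higher (median -0.60), with Bmp7 at -3.60, Vegfc at -1.74, Angpt2 at -1.09 and Wnt2 at -0.80. FGF genes were lower for 10 of 20 and higher for 1 (median -0.29), and neither Fgf7 (0.01 ± 0.15, adjusted p = 0.98 by edgeR) nor Fgf1 (-0.16 ± 0.15, adjusted p = 0.50) passed the test. Heparan sulfate genes were lower for 13 of 25 and higher for 2 (median -0.29), with Sulf1 at -1.49 and Gpc4 at -1.15. TGF-beta pathway genes were lower for 10 of 17 and elastic fibre genes for 8 of 14, and ER folding genes were level with 2 higher and 2 lower of 35. Immediate early genes were higher for 13 of 18 and lower for 2 (median 0.37). Of the markers of other cell types 0 of 6 immune genes passed the test, and Kdr, the 1 endothelial gene tested, was lower. Notch3 of 5 pericyte genes was higher and 2 were lower. S100b and Cdh19 of 4 Schwann cell genes were higher and 1 was lower, and Myh4 of 3 skeletal muscle genes was higher.

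The hormone comparison was then made within the double-high cells, as E2 and E2 + P4 together against no hormone in the 9 libraries of the layout with PBDE level as a term. Members from mice given hormone had more Sdc1, Fn1 and Wnt2, and less Wisp2, Tgfbi, Gas6, Fgf7 and Esr1. Sdc1 was 2.25 ± 0.21 higher on the log2 scale (adjusted p = 8.9e-05 by edgeR, 320 ± 66.5 CPM, n = 6, against 67.8 ± 30.6, n = 3), and Col18a1 was 0.74 ± 0.19 higher (adjusted p = 0.032, 757 ± 91.5 against 450 ± 163 CPM). Fgf10 did not pass the test at 0.60 ± 0.28 (adjusted p = 0.24 by edgeR, 152 ± 51.4 against 96.1 ± 38.8 CPM). Of 10523 genes 362 were higher (3.44%) and 430 lower (4.09%), with a median of -0.00, and the 362 include the 3 collagens of the gate, which are not read as results. The 3 libraries without hormone contributed 118 cells, and leaving out VCD_Low_PBDE gave 167 higher and 208 lower, leaving out VCD_Vehicle 217 and 270. Limits of 5 Fabp4 and 15 Postn UMIs gave 867 and 862, and no filter on low counts gave 667 higher.

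At low PBDE the library without hormone (VCD_Low_PBDE, the lowest of the VCD libraries without hormone in Col18a1) carries the first project tag and both libraries with hormone the second. With the tag as a further term, a fit added after the data had been seen, 172 genes were higher and 216 lower. Of the 362 and 430 genes called without it 154 and 186 passed, and all kept their direction. Sdc1 was 1.99 ± 0.21 higher, Cthrc1 2.74 ± 0.44 higher, Wisp2 at -3.23 ± 0.22 and Fgf7 at -1.33 ± 0.19 in that fit (adjusted p between 5.2e-05 and 0.0061 by edgeR), whereas Col18a1 no longer passed the test (0.41 ± 0.13, adjusted p = 0.13 by edgeR). Fgfr1, Lamb1, Pdia4, Timp1, Mmp11, Fabp5 and Abcc9, called by hormone in the paragraphs that follow, did not pass with the tag as a term either.

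Among genes whose 6 libraries with hormone did not overlap the 3 without (9.31% of all genes upward and 5.65% downward), Cthrc1 is shown by library. It was 18.4, 8.22 and 10.1 CPM without hormone (no, low and high PBDE), 48.0, 37.8 and 93.3 CPM with E2 and 165, 82.0 and 118 CPM with E2 + P4, a log2 difference of 2.72 ± 0.35 (adjusted p = 0.00067 by edgeR). Intact had 17.0 CPM and VCD_E2_ICI 18.3 CPM, both within the range of the libraries without hormone. Wisp2, a secreted protein of the CCN family, ran the other way, from 65.7, 126 and 74.0 CPM without hormone to between 3.62 and 13.3 CPM with it, a log2 difference of -3.77 ± 0.25 (adjusted p = 2.4e-05 by edgeR). It stood at 7.99 CPM in Intact and 32.7 CPM in VCD_E2_ICI, so that Intact lay with the hormone libraries in Wisp2 and with those without hormone in Cthrc1.

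Crispld1, a secreted cysteine-rich protein, had the largest increase among those whose means with and without hormone averaged 20 CPM or more. It was at 3.25 ± 0.38 (67.8 ± 24.5 against 8.06 ± 7.65 CPM). Angpt2, given below, fell under this limit and is not in the ranking. The neurotrophic factor receptor Gfra2 was 2.85 higher, the thrombin receptor F2r 2.81, Marcksl1 2.68, Lrrc15 2.63, Map2 2.58, the cyclin-dependent kinase inhibitor Cdkn1c 2.54, the endothelin receptor Ednra 2.53 and the sulfotransferase Chst2 2.41. Lower genes after Wisp2 were Cyp26b1 (-2.95), Tgfbi (-2.69, 17.9 ± 5.88 against 122 ± 60.4 CPM), Ntf3 (-2.23), Zc3h12a (-1.84), vitronectin, Vtn (-1.83), the kinase inhibitor Cdkn1a (-1.83), Fbln1 (-1.82), Tnfsf9 (-1.80) and complement C3 (-1.76). Adjusted p for these 20 genes lay between 2.4e-05 and 0.0024 in edgeR.

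**Figure D5:**
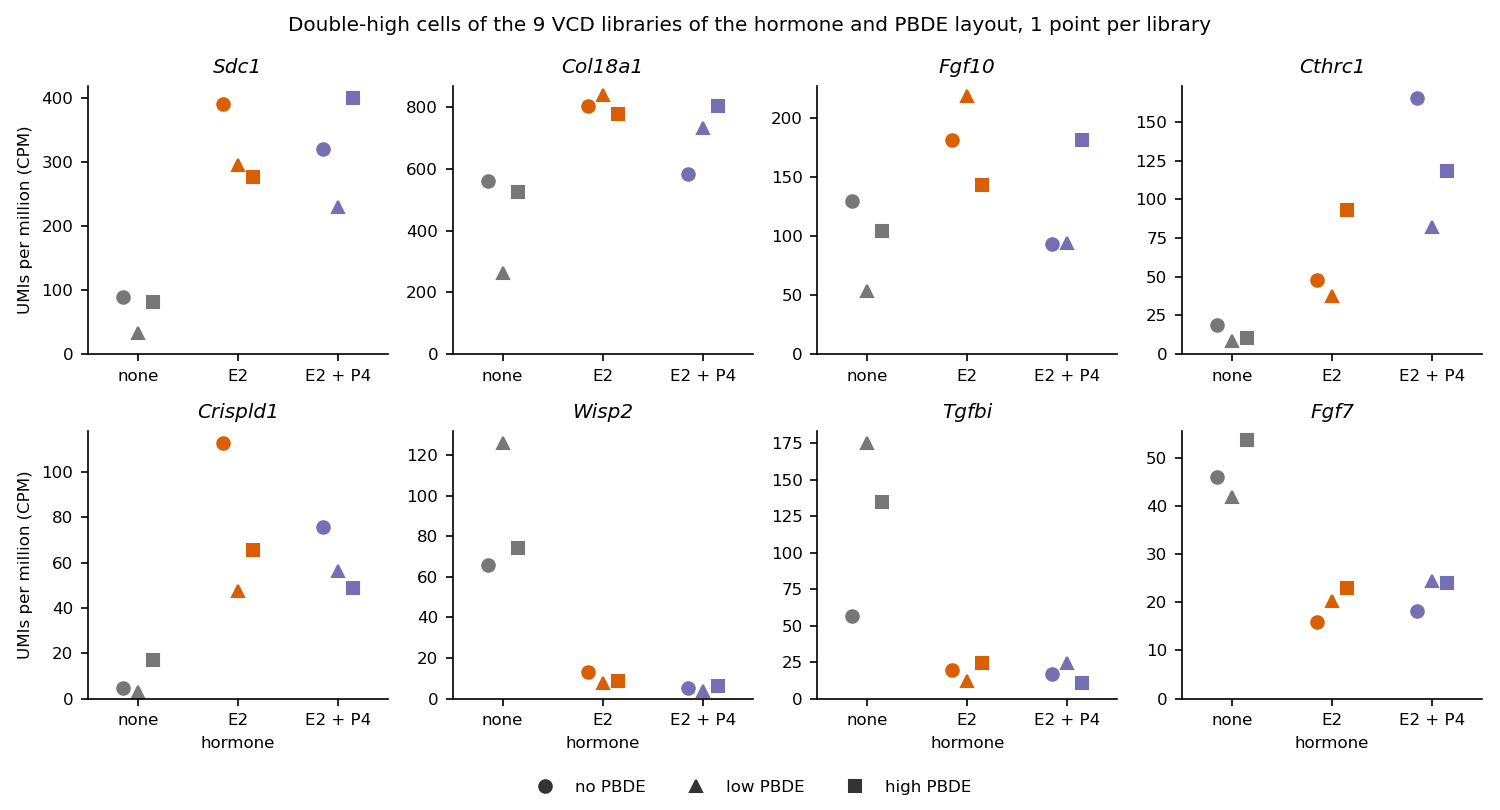
CPM in the summed double-high cells of the 9 VCD libraries by hormone, with the marker shape giving the PBDE level. Sdc1 lies between 231 and 401 CPM in all 6 libraries with hormone and at or below 89.9 in the 3 without, Wisp2 and Fgf7 lie the other way round, and Fgf10 overlaps.

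Several ligands differed between members with and without hormone. Angpt2 was counted 2 times in the no-hormone members and 1363 times in those with hormone, a ratio of their CPM of 49.1 with a 95% interval of 13.6 to 406 from counting alone, and it ranged from 30.6 to 49.3 CPM in the 6 libraries. Rspo1, which strengthens Wnt signalling, had 0 UMIs without hormone and 298 with it, so it was at least 7.16-fold higher against a floor of 3 counts over the 3 libraries. Wnt2 was 1.23 higher on the log2 scale (93.6 ± 22.4 against 38.2 ± 25.4 CPM) and Bmp2 was at -1.30. In all, 6 of 23 ligands were higher and 4 lower (median 0.40), where 3.44% of all genes tested were higher and 4.09% lower. Of 16 FGF genes 1 was higher, the FGF target Etv4 (482 UMIs against 2, ratio 17.4, 4.78 to 144), and 2 were lower, namely Fgf7 at -1.21 ± 0.16 (21.0 ± 3.40 against 47.3 ± 6.01 CPM) and Fgfr1 at -0.58 ± 0.11. Angpt2, Rspo1 and Etv4 had 2 UMIs or fewer without hormone. They entered the test only through the libraries with hormone, which bears on the counts of their lists.

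Of the 4 fibrillar collagens tested that the gate did not use, 1 was higher, Col5a2 at 0.67, and 0 were lower (median 0.19). Of 12 other collagens 3 were higher and 3 lower, where 3.44% of all genes tested were higher and 4.09% lower. Col13a1 was at 2.87 (6 UMIs without hormone and 660 with it), Col12a1 at 1.79, Col16a1 at 0.96 and Col6a2 at -0.48. Fn1 was 1.81 ± 0.20 higher (3329 ± 540 against 912.5 ± 268.2 CPM) and Thbs1 1.64 ± 0.24, in a list of 17 matricellular genes with 4 higher and 4 lower. Among 19 basement membrane genes 3 were higher, Lamc3 (1.40), Lamb1 (0.49) and Col18a1, and 2 lower, among them Smoc2 (-1.20), and Col4a1 did not pass the test (0.06 ± 0.10, adjusted p = 0.77 by edgeR). ER folding genes were higher for 9 of 35 and lower for 0 (median 0.32), with Fkbp11 at 1.07 and Pdia4 at 0.67. Of 15 proteases and inhibitors Mmp19 (1.51), Timp1 (1.13) and Mmp14 (0.80) were higher and Mmp11 (-1.73) lower.

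The estrogen receptor gene Esr1 was lower in the hormone libraries (log2 difference -0.96 ± 0.17, adjusted p = 0.0052 by edgeR, 28.8 ± 5.10 against 52.9 ± 5.15 CPM), and the highest level of all, 71.7 CPM, was in VCD_E2_ICI. Lpl (-0.20, adjusted p = 0.26 by edgeR) did not pass the test, Plin2 was 0.60 and Fabp5 0.64 higher, and cholesterol genes were lower for 4 of 21 (median -0.41). In this fit 3.44% of all genes tested were higher and 4.09% lower. Cell cycle genes passed in 0 of 19. Immediate early genes were lower for 11 of 18 (median -0.65), with Socs3 at -1.19 and Jun at -1.13, and the pericyte list had Abcc9 (-1.70) and Notch3 (-1.59) lower of 3 tested. The 4 red blood cell genes had a median of 3.49 and 0 passed the test. Their part in the other hormone differences was not tested.

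Since members from hormone libraries also had more Postn (5260 ± 1404 against 2359 ± 521 CPM, cut by the rule and not tested), the fit was repeated with members of 30 to 99 Postn UMIs only, 627 with and 111 without hormone. This limit was chosen after the data had been seen, and the band holds most of the cells without hormone that the first fit used (111 of 118), so agreement in direction with that fit is no independent support. All 356 of the higher and all 426 of the lower genes that could be tested kept their direction, and 206 and 284 of them passed the test, among 227 and 306 in all. Within this band Sdc1 was 2.47 ± 0.15 higher, Col18a1 0.69 ± 0.16, Crispld1 4.05 and Cthrc1 2.23. Wisp2 was at -3.27, Fgf7 at -0.94 and Esr1 at -0.89, and Fgf10 again did not pass (0.78 ± 0.23, adjusted p = 0.072 by edgeR). Angpt2 was at 4.70 but had 2 UMIs or fewer without hormone. The part of Postn in the differences was not tested.

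Taking all Fabp4-high fibroblasts, whatever their Postn count, Postn itself could be compared. It was 2.45 ± 0.34 higher on the log2 scale with hormone (adjusted p = 0.0025 by edgeR, 2934 ± 1805 against 417 ± 76.5 CPM, n = 6 and 3), in a table of 12614 genes of which 1171 were higher (9.28%) and 1080 lower (8.56%), the first with 1 collagen of the gate, which is not read as a result. The counts were 608 and 499 without VCD_Low_PBDE, 743 and 589 without VCD_Vehicle and 717 and 609 without VCD_High_PBDE, the lower genes were 668 without VCD_E2_P4 and 557 without VCD_Low_E2, DESeq2 called 668 lower, and the project tag as a term gave 576 and 512. With that term Postn was 2.53 ± 0.44, Sdc1 3.00 ± 0.18, Fgf10 1.29 ± 0.18 and Col18a1 1.14 ± 0.18 higher (adjusted p at most 0.014 by edgeR). Sdc1 was 2.90 ± 0.15 higher (188 ± 84.1 against 22.4 ± 3.98 CPM), Fgf10 1.24 ± 0.14 (adjusted p = 0.0012 by edgeR, 101 ± 32.7 against 40.0 ± 8.88 CPM) and Col18a1 1.18 ± 0.14 (489 ± 132 against 199.7 ± 28.2 CPM). Fgf10 thus passed here and not within the members, a contrast that was not itself tested. A sum over these cells cannot tell a larger share of double-high cells from a higher level per cell, and the share was itself higher with hormone.

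The imprinted RNA H19 had the largest increase in these cells at 4.87 ± 0.73 (99.5 ± 72.0 against 2.69 ± 1.40 CPM), followed by Cthrc1 (3.67), Gfra2 (3.67), Lrrc15 (3.61), Crispld1 (3.58), Frem1 (2.79), Fn1 (2.67) and Ttyh2 (2.41). Fbln1 (-2.33), Ppl (-2.23), Tgfbi (-2.19), Wisp2 (-1.56), Itgbl1 (-1.53) and Thsd7a (-1.52) led the lower genes, with Cdkn1a, Vtn, Podn and Slco2b1 at -1.42 to -1.50. In this fit 9.28% of all genes tested were higher and 8.56% lower. ER folding genes were higher for 19 of 35 with 0 lower, contractile genes for 6 of 10 and FGF genes for 7 of 21 with 1 lower. Immediate early genes were lower for 14 of 18. Cell cycle genes were higher for 12 of 19 (median 1.90), again for 12 with limits set in CPM and for 4 with limits of 20 Fabp4 UMIs.

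The effect of adding P4 to E2 within the members depended on the processing. In the same fit 3 genes were higher (0.0285%) and 3 lower (0.0285%) with E2 + P4 than with E2, and 1114 had an unadjusted p under 0.05. DESeq2 called 17 higher and 15 lower, and edgeR without the filter on low counts 165 and 134. Meox1, a mesenchymal homeobox gene, was 1.28 ± 0.17 higher (45.4 ± 7.97 against 20.3 ± 8.27 CPM, n = 3 each) and Ctgf, a matricellular CCN protein, 1.20 ± 0.17 (29.9 ± 8.87 against 12.8 ± 2.44). Hsd11b1, which regenerates active glucocorticoid, was at -0.90 ± 0.12 (40.2 ± 9.77 against 75.5 ± 13.2 CPM). All 3 had an adjusted p of 0.029 in edgeR, and the 3 libraries of one arm did not overlap the other, which held for 7.08% of all genes upward and 8.58% downward. Scml4 (higher) and Gm12840 (lower) also passed and are named after their values were seen. The calls rested on single libraries: 0 genes passed in either direction when VCD_E2_P4, VCD_Low_E2 or VCD_Low_E2_P4 was left out, 1 without VCD_E2, and 23 were higher and 11 lower without VCD_High_PBDE_E2. With the project tag as a term 5 were higher and 4 lower, and the 6 genes called without it were among them. Col18a1 (-0.17 ± 0.20), Sdc1 (-0.02 ± 0.18) and Fgf10 (-0.59 ± 0.27) did not pass the test.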

How the data were processed

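Single-cell RNA libraries (Chromium v3) of the mammary gland, 12 in all and 1 per group, were used. Per the labels and the study's methods, the authors made the deposited UMI count matrices with Cell Ranger 3.1.0 on mm10, with 1 matrix per library and 27998 genes. The labels and the methods name different sequencers.

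Cells were gated as the opening of the report states. UMIs were summed per library and cell state, and sums of at least 20 cells were tested with edgeR 4.0.16 (R 4.3.3) quasi-likelihood fits on TMM-scaled counts after filterByExpr, with Benjamini-Hochberg adjustment and a threshold of 0.05. State comparisons had the library as a block. Hormone comparisons had the PBDE level as a term, and all 9 libraries entered 1 fit. Shares were compared by two-sided exact permutation of hormone labels within PBDE levels, or over all libraries where stated. Their Clopper-Pearson intervals cover counting error only. Shares of cells with a UMI were taken after thinning to 5000 UMIs. Genes chosen by the gate and the markers Col18a1, Sdc1 and Fgf10 were not tested between states.

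The members and the 32 gene lists were chosen with earlier results of these data known. Named genes were the 10 with the largest change in each direction among those past the threshold, with group means averaging 20 CPM or more. They also had to move 1 way in every library (states) or without overlap (hormones). Up to 4 per list with the largest change were added, and the FGF genes, Esr1, Pgr, Tnc, Mfap4, Lpl, Dpp4, Gdf10 and Dlk1. Other list members named were picked after their values were seen. Alternatives were other UMI limits, limits in CPM, a 10% mitochondrial limit, the 6 exclusion genes of the study and no Pi16 limit on the Postn-low cells. Further ones were doublet removal, RLE scaling, no filter on low counts, DESeq2 1.42.0, sums of at least 10 cells and leaving out each library. Removal of shared barcodes, a band of 15000 to 30000 UMIs, a band of 30 to 99 Postn UMIs and the project tag of each library (from the deposited file names) as a term were added after seeing the data. The fits were tested on simulated counts. Gene positions came from GENCODE M21. Some genes that passed a test are not reported here.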

Additional observations from a re-analysis of the deposited data

Results flagged for a closer look

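Of 24 sets, each of 4 or 6 libraries, examined by Dixon's test for a single library far from the others, 2 stood out, where chance alone gives about 1 in 20, or 1.2. Both were among the 4 VCD libraries without hormone. Col18a1 in the double-high cells of VCD_Low_PBDE was 263 CPM, against 525 to 561 in the other 3 libraries. Fgfr1 in the double-high cells of VCD_Vehicle_NormEnv was 121 CPM, against 206 to 209, in a library whose 12 such cells were left out of the fits reported above.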

How the results depend on the processing

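The difference in share between hormone and no hormone kept its direction in every setting tried, from 5.45 to 8.09 percentage points with single libraries left out. It passed the threshold as a share of Fabp4-high cells (33.5, p = 0.037 by exact permutation within PBDE levels). It also passed with labels permuted over all 9 libraries (7.13, p = 0.0476, exact) and with VCD_Vehicle_NormEnv added (7.35, p = 0.019, exact). Labels were permuted over all libraries in both of the latter, without regard to PBDE level, so they are not the stratified test. The share with E2 + P4 minus that with E2 ran from -1.49 to 5.12 with single libraries left out. With single libraries left out, genes higher and lower numbered 1727 to 2084 and 1729 to 2101 against Postn-low cells, 1163 to 1548 and 1437 to 1686 against Fabp4-low cells, 167 to 341 and 208 to 448 for E2 in double-high cells, 0 to 23 and 0 to 12 for added P4, and 608 to 1015 and 499 to 842 for E2 in all Fabp4-high fibroblasts, the last lowest without VCD_Low_PBDE. For E2 in double-high cells, limits of 5 Fabp4 and 15 Postn UMIs gave 867 higher and 862 lower, no filter on low counts 667 higher the Postn band 227 higher and the project tag as a term 172 and 216. For added P4, limits in CPM gave 8 and 10, limits of 5 and 15 UMIs 1 higher, the 6 exclusion genes 11 and 8, removal of shared barcodes 5 lower, the tag 5 higher, no filter 165 and 134 and DESeq2 17 and 15. For E2 in all Fabp4-high fibroblasts DESeq2 called 668 genes lower, and the tag gave 576 and 512. Against Postn-low cells Ccna2 (-0.32), Ccnb1 (-0.30), Cdk1 (-0.42) and Mki67 (-0.57) changed sign with limits in CPM, and Ckm (0.76) with DESeq2. Sema3c (-0.22) did so when the Pi16 limit was lifted from the Postn-low cells alone and kept for the double-high cells. Against Fabp4-low cells Fgf18 (0.31) and Pcolce2 (0.31) changed sign with limits of 20 and 60 UMIs. The cause was not tested. Of the named genes called, 91 of 120, 87 of 108, 55 of 80, 0 of 4 and 70 of 108 kept their call in every setting, in the order of the comparisons above and without the collagens of the gate. Limits of 20 and 60 UMIs left too few cells for the hormone fits in double-high cells and were not run there. The cell states were paired by library and the hormone groups matched by PBDE level, as a term or as permutation strata, except where labels were permuted over all libraries. No paired analysis by replicate number was possible because the labels give 1 library per group and no such numbers.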

Other observations

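Of 14 elastic fibre genes 3 were higher and 2 lower with hormone within the double-high cells, where 3.44% of all genes tested were higher and 4.09% lower. Mfap2, a microfibril protein, was 1.18 ± 0.16 higher on the log2 scale with E2 or E2 + P4 (575 ± 137 against 242 ± 24.3 CPM, n = 6 and 3, adjusted p = 0.00094 by edgeR), Emilin1 1.10 ± 0.15 and Efemp2 0.53 ± 0.10, while Fbln1 was lower, as given above. Slit2, a guidance ligand, was at 0.70 ± 0.17 and its relative Slit3 at -0.49 ± 0.09. Syndecan-2, Sdc2, was at -0.59 ± 0.14 and the glypican Gpc6 at -0.70 ± 0.12, both against the direction of Sdc1, and the chain polymerase Ext1 was at 0.49 ± 0.12. These genes were picked after their values were seen, and Sdc2, Gpc6 and Ext1 did not pass with the project tag as a term, a fit added after the data had been seen.

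Interferon-induced genes were higher with hormone for 5 of 14 in all Fabp4-high fibroblasts, where 9.28% of all genes tested were higher. Within the double-high cells 0 of 14 were higher, which is near the 3.44% of all genes tested there. The difference between these results was not tested. In the first, Irf7 was 0.90 ± 0.17 higher (not past the threshold with the project tag as a term) and Rsad2 1.58 ± 0.23. Within the double-high cells Irf7 was at 0.80 ± 0.23 (adjusted p = 0.053 by edgeR) and Rsad2 at 0.21 ± 0.62.

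H19 in the double-high cells was 264, 214 and 213 CPM in VCD_E2_P4, VCD_Low_E2_P4 and VCD_High_PBDE_E2_P4, and 42.7, 17.4 and 205 CPM in VCD_E2, VCD_Low_E2 and VCD_High_PBDE_E2. Between the arms with and without P4 it did not pass the test (1.96 ± 0.51, adjusted p = 0.19 by edgeR). It was at most 20.2 CPM in the 4 VCD libraries without hormone, 30.9 CPM in Intact and 3.98 CPM in VCD_E2_ICI.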
